A study of Mus musculus with 23 samples.

Results

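Endothelial cells and tumour cells sorted from the same kind of nintedanib-treated mammary tumour were compared after 7 days of treatment, on 3 endothelial and 4 tumour cell arrays, 7 of the 23 arrays of the series. The arrays were chosen by the cell type and treatment in their titles. Both groups came from Py2T tumours, grown from a murine breast cancer cell line in the mammary fat pad of female FVB/N mice, and both groups had received nintedanib at 50 mg per kg body weight. Nintedanib is a small molecule that inhibits the kinase domains of VEGF, FGF and PDGF receptors. The first group is endothelial cells of the host mouse and the second is the injected line, so the groups differ in origin as well as in cell type. Py2T is 1 line, which limits the tumour cell group as a model. The labels name fluorescence-activated sorting but give no sorting markers, and the age of the mice is not given in the sources used here. Endothelial and tumour cells of untreated mice (3 arrays each) and of mice treated for 21 days (5 arrays each) served for comparison. By its title the series is about resistance to anti-angiogenic therapy and metabolic symbiosis. The comparison asks which genes set the vessel lining apart from the tumour cells while VEGF, FGF and PDGF receptors are inhibited.

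Tumour vessels grow when tumour and stromal cells release growth factors, VEGF-A above all, that bind receptor tyrosine kinases on endothelial cells. Endothelial cells in turn attract mural cells through PDGF-B and select leading tip cells through Notch signalling. Under anti-angiogenic treatment, glycolytic tumour cells can export lactate and better supplied cells can burn it, an exchange called metabolic symbiosis that runs through the monocarboxylate transporters.

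Each array gives a log2 signal per gene, and 1 unit is a 2-fold difference. Of 19938 genes, 7972 (40% of all tested) differed between endothelial and tumour cells at an adjusted p under 0.05 in limma's fit over all 23 arrays, and these are the genes named as called. No filter on low values was applied, so every measured gene entered the test. In endothelial cells 4591 genes (23%) were called higher and 3381 (17%) lower. Counts of called members in the gene lists below are to be read against these shares. Of the called genes 57.6% were higher, but this share was 37.5% with each array centred on its median, 47.8% after renewed quantile normalization, 50.2% in a fit of the 7 arrays alone, and 33.2% among genes above the 50th percentile of mean level. The median difference of all genes was 0.11 log2 units and became 0 under either rescaling, so small differences are best read against that value. Of the genes called higher 2608 (56.8%) had both group means below 4.9, the median level of all genes, against 141 (4.17%) of those called lower. Calls of at least 4-fold, 462 higher (2.32%) and 324 lower (1.63%), numbered 419 to 492 and 274 to 393 under the alternatives that kept all 7 arrays. Errors given with differences are standard errors of the fit. The labels call the arrays of a group biological replicates, without naming the animals, so the p-values cover the spread between these samples.

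Arrays of the short-term endothelial group correlated with each other at 0.935 to 0.962 across genes and those of the tumour group at 0.99 to 0.993, against 0.872 to 0.899 between the groups. A gene's residual SD had a median of 0.255 log2 units in endothelial cells and 0.156 in tumour cells. The 324 genes at least 4-fold lower had median levels of 5.39, 5.81 and 5.66 in the 3 endothelial arrays, against 8.20 to 8.26 in the tumour cell arrays. The 462 genes at least 4-fold higher had medians of 7.98, 8.40 and 8.19 in endothelial cells, against 4.30 to 4.37 in tumour cells. These last values lie below the median of all genes in the same tumour arrays (4.75 to 4.78), while the tumour cell genes lie above the median of all genes in the endothelial arrays (4.86 to 4.88).

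The genes that stood furthest above tumour cells were those that define the vessel lining. Lrg1, a secreted glycoprotein of the vessel wall, read 12.44, 12.36 and 12.46 in the endothelial arrays, against 4.34, 3.96, 3.78 and 4.03 in the tumour cell arrays. The groups were far apart and the difference was 8.39 ± 0.20 (adjusted p = 3.82e-17). The tumour cell values lie below the median of all genes, where signals are compressed, so no exact fold is given for such genes. Cdh5, the cadherin of endothelial junctions, read 11.39, 12.27 and 12.24 in endothelial cells, against 4.28, 3.83, 4.16 and 4.19 in tumour cells, a difference of 7.85 ± 0.24. Endomucin (Emcn, 7.87), the sialomucin Cd34 (7.83), the C-type lectin-like receptor Cd93 (7.78) and Pecam1 (7.29 ± 0.18), a junctional adhesion molecule, were also among the largest. The 15 largest positive differences also held the apelin receptor Aplnr (7.34), the adhesion receptors Adgrl4 (7.21) and Adgrf5 (6.87), the calcitonin receptor-like receptor Calcrl (7.01), the TGF-beta co-receptor Eng (6.96), the sphingosine 1-phosphate receptor S1pr1 (6.74), the ectonucleotidase Entpd1 (6.71), the lipase-binding protein Gpihbp1 (6.65) and the GTPase Gimap6 (6.58). Of 28 genes of endothelial identity and junctions, all 28 were called higher and all 28 by at least 4-fold. Their median difference was 5.89, from 3.69 ± 0.33 for the junction gene Jam2 to 7.87 for Emcn. The label of the endothelial arrays is borne by this list, whose mean level was 9.88 to 10.31 in them, against 4.13 to 4.27 in tumour cells.

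**Figure D1:**
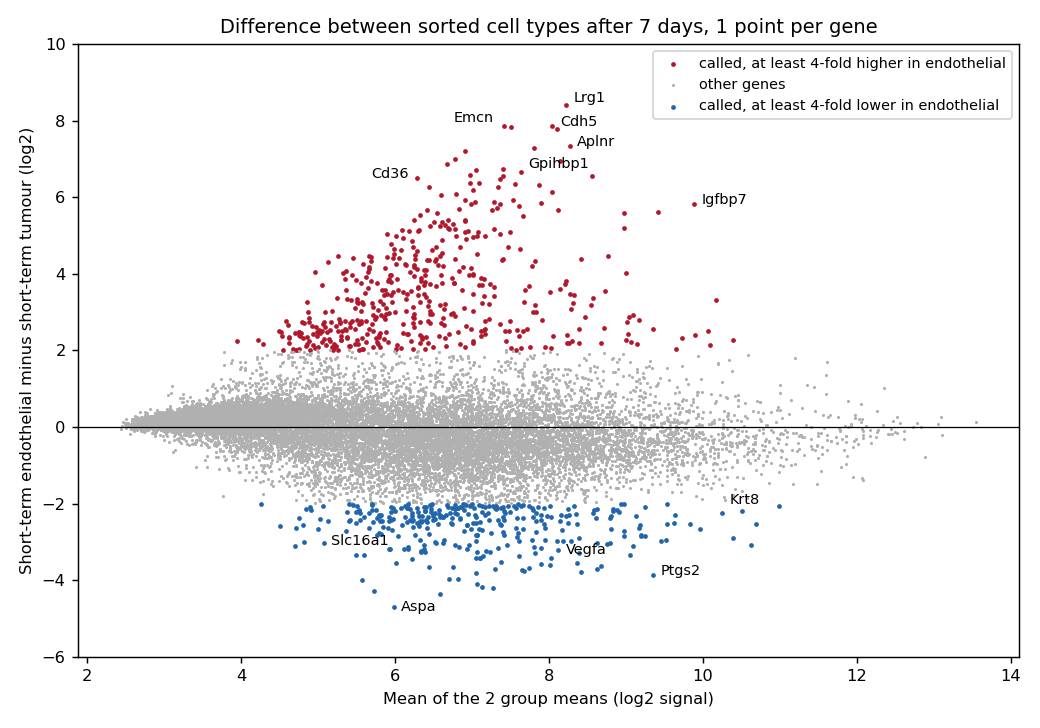
Difference between short-term endothelial and short-term tumour cells (log2, vertical) against the mean of the 2 group means (log2 signal, horizontal) for 19938 genes, 1 point per gene. Red points are the 462 genes called at least 4-fold higher, blue points the 324 called at least 4-fold lower, and the positive side reaches 8.39 while the negative side reaches -4.70.

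The promoters of Lrg1, Cd34 and Robo4 are shown as examples, among others, of endothelial genes that hold the ETS motif CAGGAAG, whose core ETS family factors such as Erg and Fli1 recognise. The sequences are from RefSeq (GRCm38.p6), 5′ to 3′ on the strand of the gene, from 250 bases before to 50 after the start, with matches on both strands in capitals. The Lrg1 promoter lies at chr17:56121897-56122196 on the minus strand and holds 3 matches, that of Cd34 at chr1:194938571-194938870 on the plus strand, and that of Robo4, a guidance receptor of endothelial cells, at chr9:37401722-37402021 on the plus strand.
Lrg1: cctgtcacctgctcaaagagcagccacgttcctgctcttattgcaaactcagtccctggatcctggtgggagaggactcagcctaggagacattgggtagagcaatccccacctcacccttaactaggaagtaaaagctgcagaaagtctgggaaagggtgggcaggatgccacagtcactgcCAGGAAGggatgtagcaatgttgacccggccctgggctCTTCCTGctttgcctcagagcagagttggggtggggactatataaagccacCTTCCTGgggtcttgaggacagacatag
Cd34: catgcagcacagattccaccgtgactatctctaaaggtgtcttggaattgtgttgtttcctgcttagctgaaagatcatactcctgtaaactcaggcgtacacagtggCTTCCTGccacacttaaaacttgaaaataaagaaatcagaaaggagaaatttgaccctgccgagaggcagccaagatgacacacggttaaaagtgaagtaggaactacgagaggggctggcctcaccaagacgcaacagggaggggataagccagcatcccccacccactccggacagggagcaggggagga
Robo4: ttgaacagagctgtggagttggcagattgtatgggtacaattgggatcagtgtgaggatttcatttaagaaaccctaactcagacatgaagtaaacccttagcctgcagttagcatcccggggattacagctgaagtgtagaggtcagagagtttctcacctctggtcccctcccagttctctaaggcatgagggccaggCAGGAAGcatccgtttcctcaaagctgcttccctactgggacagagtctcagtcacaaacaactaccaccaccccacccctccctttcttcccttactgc
Of 322 genes called at least 4-fold higher with a promoter in the table, 22.7% held the motif, against 15.1% of 239 genes called at least 4-fold lower and 14.3% of all 15563 genes with a promoter. Among the genes of endothelial identity it stood in 6 of 15 (40.0%). The AP-1 motif TGANTCA stood in 8.70% of the genes at least 4-fold higher, 24 of the 239 genes at least 4-fold lower and 8.06% of all. Both motifs stood in 167 promoters, and their matches overlapped in 8. These shares describe the windows and were not tested.

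Transcription factors of the endothelium were mostly higher in endothelial cells. Of 27 measured, 21 were called higher, 14 of them by at least 4-fold, and 4 were called lower, with a median of 2.07. The SOX factor Sox18 led with 6.31 ± 0.17, followed by the repressor Bcl6b (5.82), Sox7 (5.19), the ETS factors Erg (4.62 ± 0.22) and Fli1 (4.32) and the hypoxia-inducible factor Epas1 (4.46). Erg read 8.43, 9.22 and 8.71 in endothelial cells, against 4.69, 3.91, 4.25 and 3.80 in tumour cells. The venous factor Nr2f2 was lower, by -0.88 ± 0.23, with 7.83, 9.32 and 9.09 in endothelial cells against 9.44 to 9.75 in tumour cells, a call lost in a fit of the 7 arrays alone (adjusted p = 0.0855). Klf4 (-0.94 ± 0.25), Foxc1 (-0.86) and Foxc2 (-1.20) were lower too, but the calls of Foxc1 and Foxc2 were lost without endothelial replicate 1 (adjusted p = 0.145 and 0.116), which left 2 of the 4. That of Klf4 was lost without endothelial replicate 3 (adjusted p = 0.0572), and that of Foxc2 also without endothelial replicate 2 or tumour replicate 2 (adjusted p = 0.0546 and 0.0527). Klf2, a factor induced by blood flow, was higher by 1.30 ± 0.21.

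Most listed receptors coupled to G proteins were higher in endothelial cells. Of 17, 14 were called higher, 10 of them by at least 4-fold, with a median of 2.49. Calcrl and its partner Ramp2 (6.55 ± 0.26), which together form the adrenomedullin receptor, were both among them, while their ligand Adm was higher by 2.03 ± 0.52. The endothelin receptor Ednrb (5.14) and S1pr1 were also higher. Ackr3, a scavenger receptor for the chemokine CXCL12, was the member called lower, by -0.74 ± 0.19.

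The targets of nintedanib were split between the cell types. Of 11 kinase genes 6 were called higher and 4 lower in endothelial cells. Kdr, which encodes VEGF receptor 2, read 9.81, 10.67 and 10.01 in endothelial cells, against 3.71, 3.70, 3.96 and 3.81 in tumour cells, a difference of 6.37 ± 0.18. The tumour cell values of Kdr lie below the median of all genes. The receptors Flt1 (6.47 ± 0.21) and Flt4 (5.25 ± 0.24), which binds VEGF-C and VEGF-D, were higher by similar amounts. The PDGF receptors ran the other way. Pdgfra read 5.56, 6.15 and 5.56 in endothelial cells and 8.72 to 9.15 in tumour cells (-3.16 ± 0.53, adjusted p = 0.000144). Pdgfrb read 6.53, 6.60 and 7.33 in endothelial cells and 8.97 to 9.39 in tumour cells (-2.32 ± 0.33). Fgfr1 was lower by -1.67 ± 0.16 and the cytoplasmic kinase Src by -0.83 ± 0.19. Fgfr3 and Fgfr4 were higher by 0.72 each and Flt3 by 0.48, a call lost without endothelial replicate 1 (0.29, adjusted p = 0.127), and Fgfr2 did not pass (0.31 ± 0.24, adjusted p = 0.290).

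The ligand genes were also called in both directions. Of 20 genes for VEGF, PDGF, FGF and angiopoietin ligands, 8 were called higher and 6 lower, and the count of 8 fell to 5 without endothelial replicate 2 or replicate 3. Vegfa read 7.16, 6.79 and 5.58 in endothelial cells, against 10.08, 9.71, 9.71 and 9.36 in tumour cells. The groups did not overlap, as for 44.3% of all genes (26.6% with endothelial cells above and 17.7% below), and the difference was -3.20 ± 0.51, 9.22-fold lower in endothelial cells (adjusted p = 8.25e-05). Angpt1, the agonist of the receptor Tek, was lower by -3.25 ± 0.54, with 4.69, 5.95 and 6.05 in endothelial cells and 8.56 to 9.03 in tumour cells. Its receptor gene Tek was higher by 6.26 ± 0.24, and the context-dependent antagonist Angpt2, released by activated endothelium, by 2.14 ± 0.38. Pdgfc (-3.24 ± 0.84), Vegfd (-2.53 ± 0.56) and Fgf2 (-1.40 ± 0.28) were lower. Pdgfb, the ligand that recruits pericytes, was higher by 3.07 ± 0.25, with 7.64, 8.21 and 8.67 in endothelial cells and 4.86 to 5.36 in tumour cells. Pdgfd was higher by 2.85 ± 0.45, and endothelial replicate 3 (8.04) stood above the other two (5.34 and 5.55). Vegfc was higher by 0.88 ± 0.29, a call that was lost without endothelial replicate 2 or 3 or tumour replicate 3 (adjusted p = 0.064, 0.0583 and 0.0549). Vegfb (0.25), Pgf (0.77) and Pdgfa (-0.07) did not pass, although Pgf passed in a fit of the 7 arrays alone (adjusted p = 0.00857).

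**Figure D2:**
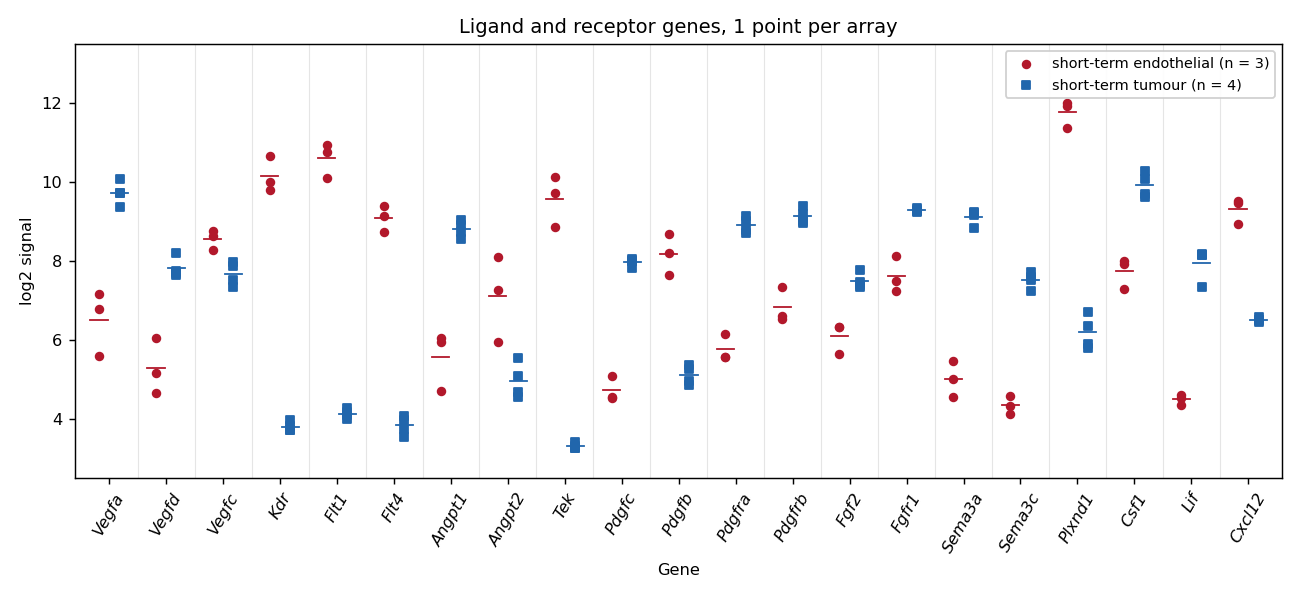
Log2 signal (vertical) of 21 ligand and receptor genes in the 3 short-term endothelial arrays (red circles) and the 4 short-term tumour cell arrays (blue squares), with a bar at each group mean. Vegfa, Angpt1, Pdgfc and the PDGF receptors sit higher in tumour cells, while Kdr, Flt1, Flt4, Tek, Pdgfb and Plxnd1 sit higher in endothelial cells.

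Tip cell genes, expressed by the cells that lead a sprout, were called higher in 15 of 20 cases and lower in 0, with a median of 2.81. Aplnr, Mcam (6.54 ± 0.20), the basement membrane genes Nid2 and Lama4, the potassium channel subunit Kcne3 (5.04), the Notch ligand Dll4 (4.50 ± 0.23) and the chemokine receptor Cxcr4 (4.20 ± 0.45) were among them. Cxcr4 varied within the endothelial group, with 7.02, 9.10 and 10.03, against 4.13 to 4.74 in tumour cells. Apln, the ligand of Aplnr, was higher by 2.54 ± 0.36. Esm1, a secreted proteoglycan induced by VEGF, was not called at 1.00 ± 0.47 (adjusted p = 0.0904). It read 4.37, 4.12 and 4.38 in endothelial cells and 3.15 to 3.52 in tumour cells, below the median of all genes in every one of the 7 arrays, although the groups did not overlap. Esm1 passed in a fit of the 7 arrays alone (adjusted p = 0.00158). In untreated mice its difference was 3.19 and was called (adjusted p = 9.97e-05). A call in untreated mice and none after 7 days does not by itself show a change, and the test of that change is not given here for Esm1.

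Of 19 Notch and arterial genes 13 were called higher and 1 lower. Dll4, the gap junction genes Gja4 (4.87) and Gja5 (2.74), Sox17 (3.97), the ligands Dll1 (3.53) and Jag2 (3.05), the receptors Notch4 (3.41 ± 0.29) and Notch1 (1.88 ± 0.23) and the target genes Hey1 (2.07) and Nrarp (2.21) were higher. Notch2 was the exception, at 4.97, 5.97 and 5.44 in endothelial cells against 9.35, 8.63, 8.64 and 8.69 in tumour cells (-3.37 ± 0.39). Hes1 (-0.07), Efnb2 (0.06) and Notch3 (0.35) did not pass. Of 15 venous and leukocyte adhesion genes 13 were called higher and 2 lower. The selectin Sele (1.96 ± 0.26) and Icam1 (2.36 ± 0.39), which hold leukocytes at the vessel wall, were higher, and Icam1 spread over 5.98, 6.93 and 8.0 in endothelial cells against 4.33 to 4.83 in tumour cells. Vcam1 was higher by only 0.39 ± 0.15 (adjusted p = 0.0495), and its arrays overlapped between the groups.

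Genes of lipid uptake were mostly higher in endothelial cells. Of 15 genes of caveolae and lipid uptake 10 were called higher and 1 lower, with a median of 1.35. Gpihbp1, which carries lipoprotein lipase to the capillary lumen, read 11.08, 11.02 and 10.78 in endothelial cells and 4.18 to 4.4 in tumour cells (6.65 ± 0.22). The fatty acid transporter Cd36 (6.51 ± 0.45) and the fatty acid binding protein Fabp4 (5.88 ± 0.26) were higher to a like extent, and the nuclear receptor Pparg was higher by 2.33 ± 0.26. The caveolin genes Cav1 (-0.04 ± 0.16) and Cav2 (-0.04 ± 0.22) did not pass, and Cav1 read between 10.15 and 10.69 in all 7 arrays. Cavin1 (1.35) and Cavin3 (1.66) were higher and Cavin2 (-1.35 ± 0.22) was lower.

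Guidance genes were called in both directions. Of 30 semaphorin, plexin and guidance genes 14 were called higher and 8 lower. Sema3a read 4.56, 5.46 and 5.01 in endothelial cells, against 9.16, 8.83, 9.21 and 9.25 in tumour cells (-4.10 ± 0.35). Sema3c was lower by -3.18 ± 0.22, Sema3d by -3.01 ± 0.43 and Slit2 by -3.14 ± 0.43. Plxnd1, a receptor for class 3 semaphorins, read 11.36, 12.01 and 11.92 in endothelial cells and 5.80 to 6.70 in tumour cells (5.58 ± 0.30). The Slit receptors Robo4 (5.58 ± 0.18) and Robo1 (4.63 ± 0.29), Plxna2 (2.42) and the co-receptors Nrp2 (1.27) and Nrp1 (0.91 ± 0.25) were higher as well. The ligand genes Sema6d (5.88), Sema3f (2.57), Sema3g (1.38) and Slit3 (1.36) were higher too, so ligand genes were found in both directions.

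In the TGF-beta and BMP pathway 11 of 30 genes were called higher and 6 lower. The endothelial co-receptor Eng, the type I receptor Acvrl1 (2.75 ± 0.28), the pseudoreceptor Bambi (3.35 ± 0.15), the signal transducer Smad1 (1.91 ± 0.22), its target Id1 (1.31) and the ligand Tgfb1 (2.21 ± 0.39) were higher. Bmpr1a (-3.56 ± 0.40), the activin subunit gene Inhba (-3.43 ± 0.53), the latent TGF-beta binding protein gene Ltbp1 (-2.95 ± 0.37) and Tgfb3 (-1.84 ± 0.59) were lower. The call of Tgfb3 was lost without endothelial replicate 1 or 2 (adjusted p = 0.128 and 0.0755). Among 15 genes of coagulation and fibrinolysis 7 were called higher and 2 lower, the 2 becoming 1 without endothelial replicate 3. Entpd1, which degrades the platelet agonist ADP, the tissue factor pathway inhibitor Tfpi (3.98 ± 0.25) and von Willebrand factor (Vwf, 3.81 ± 0.33) led that list.

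Basement membrane genes were mostly higher in endothelial cells. Of 17 basement membrane genes 13 were called higher, 8 of them by at least 4-fold, and 2 lower, with a median of 1.68. Nid1 (6.26 ± 0.25), Nid2 (6.19), the laminin gene Lama4 (5.52), Col15a1 (4.65) and the collagen IV genes Col4a1 (4.01 ± 0.26) and Col4a2 (3.80) were higher, while Col4a5 (-1.79 ± 0.24) and Lamb3 (-1.02) were lower. Of 24 genes of fibrillar collagens and the interstitial matrix 6 were called higher and 8 lower, with 12 differences in each direction and a median of 0.08, and the 6 became 3 without endothelial replicate 3. Versican (Vcan, -3.63 ± 0.61), Fbln2 (-2.02), Col6a1 (-1.97) and decorin (Dcn, -1.38 ± 0.33) were lower. Fibronectin (Fn1) was lower by -1.29 ± 0.38, a call lost without endothelial replicate 1 (-1.02, adjusted p = 0.0746). Col1a1 (-0.07) did not pass. Of 20 metalloproteinases and inhibitors 6 were called in each direction, with Adamts4 (4.34 ± 0.21) and Adam19 (2.97) at the upper end and Mmp3 (-2.35 ± 0.53) and Timp2 (-1.61) at the lower.

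Genes at the negative end were fewer and smaller in size. Only 7 were at least 16-fold lower in endothelial cells, against 141 at least 16-fold higher. Aspa, the enzyme that cleaves N-acetylaspartate, read 4.34, 3.57 and 2.98 in endothelial cells, against 8.31, 8.19, 9.18 and 7.65 in tumour cells (-4.70 ± 0.58). The serine proteases Tmprss11b (-4.29 ± 0.52) and Tmprss11e (-3.97 ± 0.41), the phosphatase Acpp (-4.20 ± 0.36), the EGF receptor ligand epiregulin (Ereg, -4.17 ± 0.67) and Sema3a followed. The 15 largest negative differences also held Ttc39c (-4.0), the drug efflux pump Abcb1b (-3.98), the inducible cyclooxygenase Ptgs2 (-3.87 ± 0.52), the cGMP-dependent kinase Prkg2 (-3.82), the vitamin D receptor Vdr (-3.78), Sertad4 (-3.75), the integrin Itgb8 (-3.73), the transcription factor Trps1 (-3.71) and the small proteoglycan Ogn (-3.70). Ptgs2 read 7.89, 7.06 and 7.30 in endothelial cells and 11.15 to 11.50 in tumour cells, where it was among the brighter genes.

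Epithelial genes marked the tumour cells only in part. Of 32 keratin and epithelial junction genes 9 were called lower and 3 higher in endothelial cells, and 20 were not called. The 3 higher became 1 without tumour replicate 3. Krt8, a keratin of simple epithelia, read 8.65, 9.36 and 9.35 in endothelial cells, against 11.50, 11.26, 11.22 and 11.49 in tumour cells (-2.25 ± 0.58, adjusted p = 0.00544). Both groups lay well above the median of all genes. Krt18 (-2.51 ± 0.57), Krt14 (-2.47 ± 0.53), E-cadherin (Cdh1, -1.85 ± 0.36), desmoplakin (Dsp, -1.98 ± 0.31) and the plakophilin Pkp2 (-1.76) were lower. Epcam, a common marker of epithelial tumour cells, did not pass at -0.26 ± 0.32 (adjusted p = 0.527) and read 4.46 to 4.86 in the tumour cells, near the median of all genes. The label of the tumour cell arrays is thus borne by part of this list, including Krt8, Krt18, Krt14, Cdh1 and Dsp. It is not borne by the 20 members not called, Epcam among them, or by the 3 called higher. Whether RNA of tumour cells contributed to the endothelial values was not tested, and in sorted samples fewer cells of a type and less RNA per cell cannot be told apart.

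The tumour cells also carried mesenchymal genes. Of 24 mesenchymal and EMT genes 12 were called lower in endothelial cells and 7 higher, with a median of -0.77. EMT is the transition of epithelial to mesenchymal cells. Hmga2 (-3.56 ± 0.71), Sox9 (-3.02 ± 0.41), Twist1 (-2.27 ± 0.39), Zeb2 (-1.63) and Prrx1 (-1.42) encode regulators of transcription or chromatin and were lower. The transcription factor genes Zeb1 and Twist2 were called too, at least 1 of them higher in endothelial cells, so such regulators did not all go the same way. Twist1 read 6.09, 5.27 and 4.95 in endothelial cells and 7.55 to 7.84 in tumour cells. Vimentin (Vim), an intermediate filament of mesenchymal cells, was bright in all arrays, at 12.09 to 12.66 in endothelial cells and 11.99 to 12.13 in tumour cells, and was higher by 0.41 ± 0.11. This call was lost in a fit of the 7 arrays alone (adjusted p = 0.0853) and with each array centred on its median (0.30, adjusted p = 0.051). Acta2 (3.77 ± 0.45), Tagln (2.12 ± 0.23) and Fstl1 (4.97 ± 0.31) were higher in endothelial cells. Of 14 mammary lineage genes 1 was called higher, the receptor Kit (3.57), and 2 lower, the luminal factor Gata3 (-2.38 ± 0.40) and Trp63 (-0.79).

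Growth factor receptors outside the VEGF group were called lower in 9 of 26 cases and higher in 5. The hepatocyte growth factor receptor Met (-2.11 ± 0.36), Axl (-2.14 ± 0.42), Igf1r (-1.66 ± 0.27), Egfr (-1.53 ± 0.20) and the collagen receptor Ddr1 (-1.68) were lower in endothelial cells together with the ligand Ereg. Egfr read 5.49, 5.54 and 5.50 in endothelial cells and 6.81 to 7.2 in tumour cells. The insulin receptor Insr (2.78 ± 0.21), the Axl ligand Gas6 (1.80 ± 0.35) and the binding proteins Igfbp7 (5.83 ± 0.18) and Igfbp5 (2.37 ± 0.43) were higher. Igfbp7 was also among the brightest genes of the endothelial arrays, at 12.63, 12.92 and 12.85, against 6.44 to 7.47 in tumour cells. Igfbp5 spread over 5.20, 7.99 and 6.23 in endothelial cells. Of 16 genes of ERK feedback, which report on MAP kinase activity, 4 were called lower and 3 higher. These counts lie near the shares of all genes (17% lower and 23% higher). The lower ones were Dusp4 (-2.42 ± 0.38), Fosl1, Etv1 and Phlda1. The higher ones were Spry4 (2.03 ± 0.40), Spry1 (1.38) and Spred1 (1.23). Of the 16 differences, called or not, 13 were negative, with a median of -0.58.

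**Figure D3:**
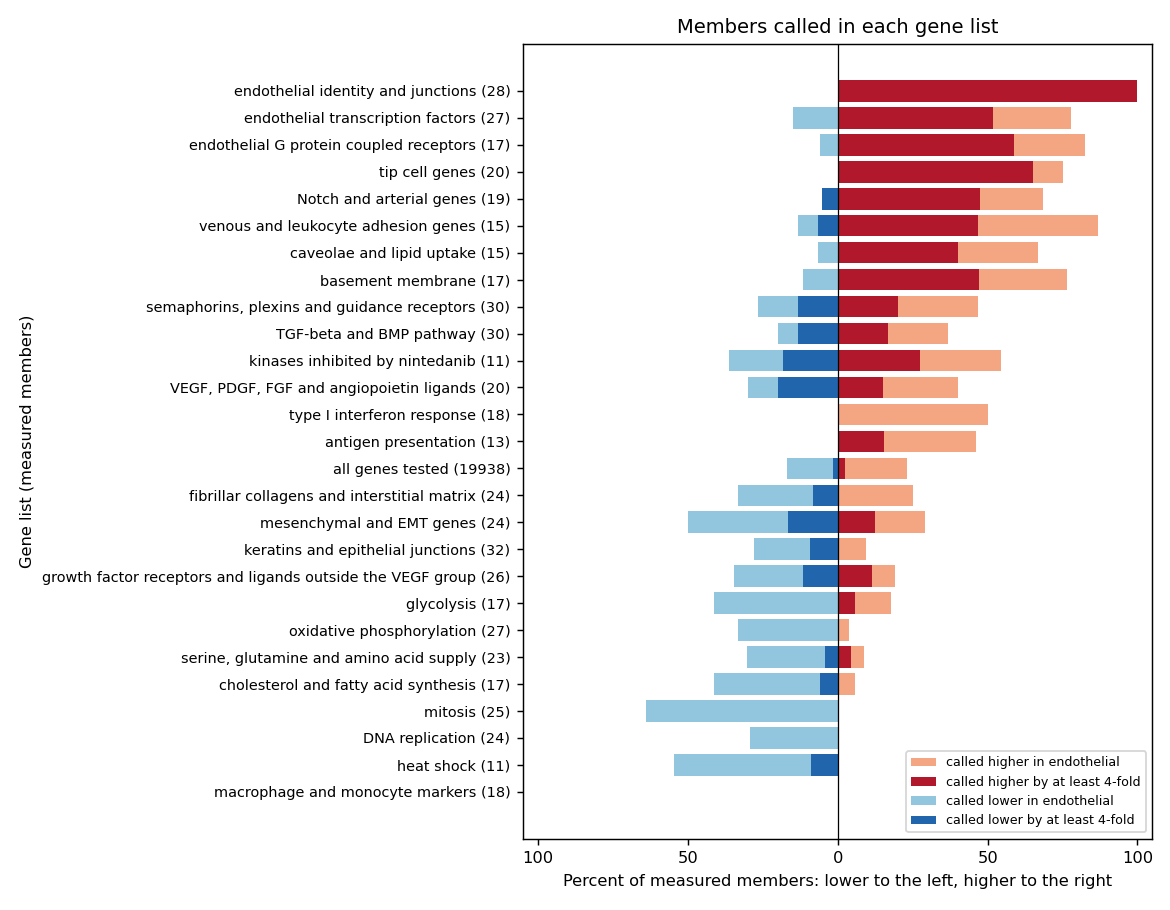
Share of measured members called in endothelial against tumour cells (percent, horizontal) for 26 gene lists and for all genes, lower to the left in blue and higher to the right in red, with dark bars for differences of at least 4-fold. All 28 endothelial identity genes lie to the right, all called mitosis genes lie to the left, and 0 of 18 macrophage markers were called.

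Glycolytic genes were not uniformly higher in either cell type. Of 17 genes 3 were called higher and 7 lower in endothelial cells, with a median of -0.31. The lower ones were enzymes, Tpi1 (-1.64 ± 0.32), Pgk1 (-1.27 ± 0.16), Eno2 (-1.22), Pgam1 (-1.13), Hk2 (-0.75 ± 0.19), Pfkm (-0.71) and Aldoa (-0.41). Pgk1 read 9.18, 9.20 and 9.15 in endothelial cells, against 10.50, 10.40, 10.38 and 10.50 in tumour cells. The higher ones were the regulator Pfkfb3 and the glucose transporters Slc2a1 and Slc2a3. Pfkfb3, which makes the activator of phosphofructokinase, read 5.57, 6.95 and 6.35 in endothelial cells and 3.99 to 4.30 in tumour cells (2.17 ± 0.32, adjusted p = 3.19e-05). The transporter Slc2a1 was higher by 1.09 ± 0.35, but endothelial replicate 3 (11.32) stood above the other two (9.23 and 9.30), and without it the difference was 0.40 (adjusted p = 0.172). Slc2a3 was higher by 0.64 ± 0.12 at levels of 4.11 to 4.43 in endothelial cells and 3.59 to 3.69 in tumour cells, all below the median of all genes.

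The lactate transporter genes Slc16a1 and Slc16a3 were called in opposite directions. Slc16a7, another transporter gene of this list, was called too, and its value is not given here. Slc16a1, which encodes the transporter MCT1, read 4.22, 4.94 and 4.39 in endothelial cells, against 7.85, 7.92, 7.69 and 7.37 in tumour cells. The groups were clearly apart, and the difference was -3.19 ± 0.38 (adjusted p = 2.85e-06). Slc16a3, which encodes the exporter MCT4, read 6.80, 5.98 and 5.19 in endothelial cells, against 4.53, 4.84, 4.65 and 4.61 in tumour cells (1.33 ± 0.40, adjusted p = 0.0136). Without endothelial replicate 1 this difference was 0.93 and no longer called (adjusted p = 0.101). Ldha, which converts pyruvate to lactate, did not pass at -0.31 ± 0.16 (adjusted p = 0.117), with 9.69 to 9.93 in endothelial cells and at most 10.43 in tumour cells, and passed with each array centred on its median (-0.43, adjusted p = 0.0464). Basigin (Bsg, -0.45 ± 0.19), the chaperone of both transporters, did not pass either. The membrane carbonic anhydrase Car4 was higher by 2.75 ± 0.52 and Car12 was lower by -0.87 ± 0.20, while the hypoxia-induced Car9 read 3.52 to 3.87 in all 7 arrays (0.19 ± 0.26) and changed sign after renewed quantile normalization (-0.02). In all, 3 of 15 genes of lactate transport and pH regulation were called higher and 4 lower.

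Of 22 hypoxia targets 3 were called higher (Adm, Ndrg1 at 1.34 ± 0.25 and Slc2a1) and 7 lower, which were Vegfa, the lipid droplet gene Plin2 (-1.22), the demethylase Kdm3a (-1.13), Ero1a, Bnip3 (-1.0 ± 0.27), Angptl4 and P4ha1. The call of Bnip3 was lost after renewed quantile normalization (adjusted p = 0.0506). Of 27 genes of oxidative phosphorylation 9 were called lower and 1 higher, with a median of -0.41 and none at least 4-fold. The 1 higher, Uqcrc1 (0.61), was lost without endothelial replicate 1 or 3 (adjusted p = 0.0884 and 0.0727), and 2 were higher without replicate 2. The ATP synthase subunit genes Atp5c1 (-0.75 ± 0.14) and Atp5b (-0.60 ± 0.12) and the cytochrome c oxidase gene Cox6c (-0.71 ± 0.15) were among the 9, a count that was 5 without endothelial replicate 3 and 3 after renewed quantile normalization. Biosynthetic genes leaned the same way. Of 23 genes of serine, glutamine and amino acid supply 7 were lower and 2 higher, and of 17 genes of cholesterol and fatty acid synthesis 7 were lower and 1 higher, and the 1 became 0 without tumour replicate 1 or 4 or endothelial replicate 2. Phgdh, the first enzyme of serine synthesis, read 4.38, 5.06 and 6.01 in endothelial cells and 7.42 to 7.51 in tumour cells (-2.31 ± 0.54). The desaturase Scd1 (-2.96 ± 0.52), squalene epoxidase (Sqle, -1.97 ± 0.25), Acaca (-1.70 ± 0.13) and Fasn (-1.59 ± 0.31) were lower. The glutamine transporter Slc1a5 (2.24 ± 0.39) and glutamine synthetase (Glul, 1.26 ± 0.23) were higher, with Glul at 9.36 to 10.12 in endothelial cells and 8.29 to 8.92 in tumour cells.

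**Figure D4:**
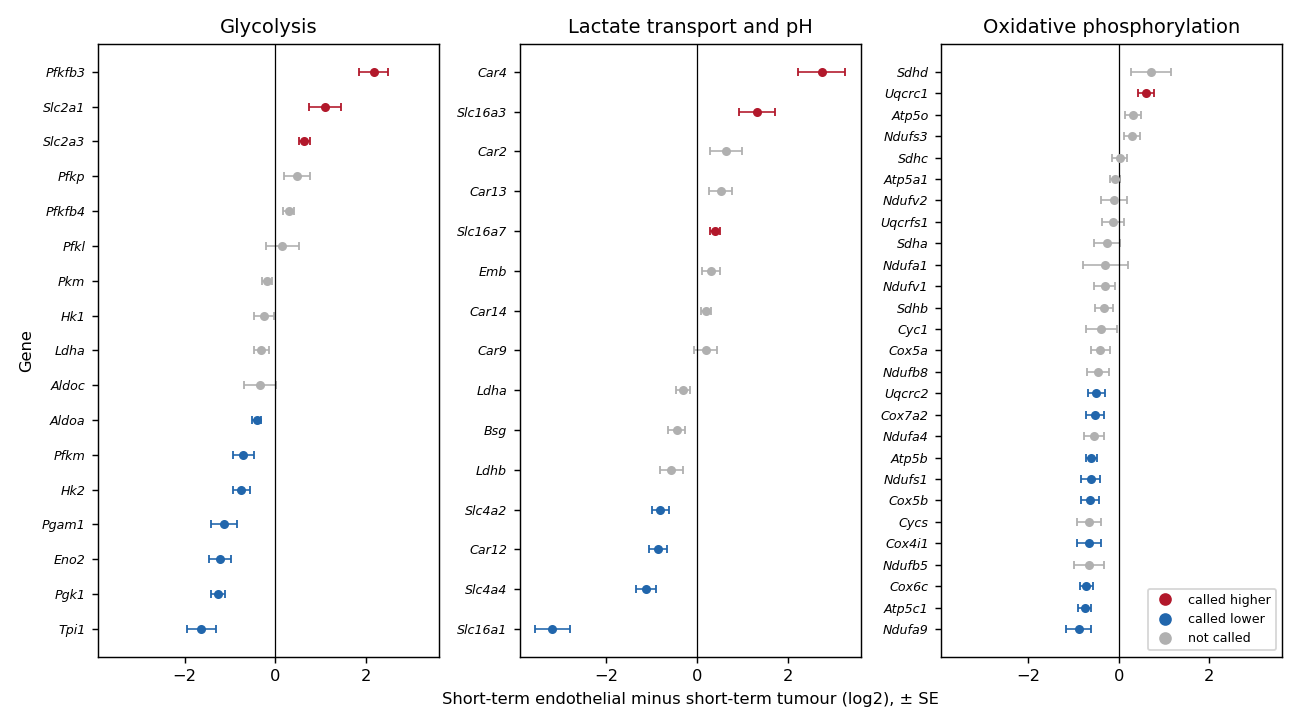
Difference between short-term endothelial and short-term tumour cells (log2, horizontal, with its standard error) for the measured genes of 3 metabolic lists, coloured by call. Pfkfb3 and Car4 stand highest, Slc16a1 stands lowest at -3.19, and most genes of oxidative phosphorylation lie between -1 and 0.

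Proliferation genes were lower in endothelial cells. Of 25 mitosis genes 16 were called lower and 0 higher, all 25 differences were negative, and the median was -0.91. The count of 16 was 9 without endothelial replicate 1 and 8 with array weights. Topoisomerase Top2a read 5.49, 5.92 and 5.98 in endothelial cells, against 7.16, 7.37, 7.31 and 7.64 in tumour cells (-1.57 ± 0.28). Survivin (Birc5) was lower by -1.56 ± 0.42, with endothelial replicate 1 (7.06) nearer to the tumour cells (7.41 to 7.74) than replicates 2 and 3 (5.45 and 5.68). Mki67, by contrast, was lowest in endothelial replicate 1 (5.10, against 6.52 and 6.81 in the other two) and was lower by -1.01 ± 0.37. Of 24 DNA replication genes 7 were called lower and 0 higher, led by Cdc45 (-1.54 ± 0.34), and 17 were not called. Without endothelial replicate 2 or 3, 1 was called higher. Mcm2, Mcm3, Mcm6 and Pcna had differences between -0.13 and 0.19.

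Interferon and antigen presentation genes were higher in endothelial cells where they were called at all. Of 18 type I interferon genes 9 were called higher and 0 lower, with a median of 0.54 and none at least 4-fold. Irf9 and Stat2, components of the interferon-activated transcription complex, were higher by 1.70 ± 0.35 and 1.12 ± 0.25. Ifit3 was higher by 1.70 ± 0.36, with endothelial replicate 1 (6.17) above the other two (3.89 and 4.43). Of 13 antigen presentation genes 6 were called higher and 0 lower. The immunoproteasome subunits Psmb9 (2.57 ± 0.36) and Psmb8 (1.56 ± 0.30), the peptide transporters Tap1 (2.04 ± 0.25) and Tap2 (1.27) and beta-2 microglobulin (B2m, 1.10 ± 0.11) were among them. B2m read 11.73, 11.96 and 12.01 in endothelial cells, against 10.66 to 10.93 in tumour cells. The class II genes H2-Aa (0.33), H2-Ab1 (0.67) and Cd74 (0.34) did not pass.

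Of 26 chemokine and cytokine genes 4 were called higher, 6 lower and 16 not at all, near the shares of all genes (23% higher and 17% lower). Leukaemia inhibitory factor (Lif) read 4.59, 4.53 and 4.35 in endothelial cells, against 8.14, 8.17, 8.14 and 7.34 in tumour cells (-3.46 ± 0.39). The alarmin Il33 (-2.95 ± 0.40), the neutrophil chemokines Cxcl2 (-2.56 ± 0.52) and Cxcl1 (-2.09 ± 0.51), the macrophage growth factor Csf1 (-2.19 ± 0.50) and Cx3cl1 (-1.39 ± 0.25) were lower as well. Cxcl12, the ligand of Cxcr4, read 9.47, 8.93 and 9.53 in endothelial cells and 6.44 to 6.59 in tumour cells (2.80 ± 0.23), and the interferon-induced Cxcl9 was higher by 2.54 ± 0.53. Il6 (1.75 ± 0.51) and Ccl11 (1.57 ± 0.52) were higher too, but the call of Il6 was lost without endothelial replicate 2 (1.08, adjusted p = 0.0879) and that of Ccl11 without endothelial replicate 3 (0.63, adjusted p = 0.209) or tumour replicate 1 (1.45, adjusted p = 0.0524). Immediate early and dissociation genes were called lower in 9 of 19 cases and higher in 0 (1 without endothelial replicate 1 or 2), with a median of -0.59, among them Egr2 (-2.47 ± 0.48), Fosb (-1.89) and Fos (-1.24 ± 0.27). Of 11 heat shock genes 6 were lower and 0 higher, led by the small heat shock protein Cryab (-2.35 ± 0.37) and the mitochondrial chaperone Hspd1 (-1.46 ± 0.18). These last lists respond to tissue handling, and the part of handling in the difference was not tested.

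Markers of other cells were examined because a sort can carry them. Of 18 macrophage and monocyte markers 0 were called by limma in either direction, with a median difference of 0.16. Their mean levels were 4.43 to 4.74 in endothelial cells and 4.11, 4.10, 4.62 and 4.79 in tumour replicates 1 to 4. A lack of calls between the groups does not show a lack of macrophage RNA in them. For the 13 pericyte and smooth muscle markers the mean level was 6.32 to 6.54 in endothelial cells and 5.06 to 5.15 in tumour cells, with 9 called higher and 2 lower. Rgs5, a defining pericyte gene, read 8.70, 8.35 and 8.72 in endothelial cells and 3.70 to 4.10 in tumour cells (4.70 ± 0.48), and Acta2 (9.5, 7.46 and 8.99 in endothelial cells) and the potassium channel subunit Abcc9 (3.25 ± 0.33) were higher as well. Mcam, the largest difference of that list, is also an endothelial gene. Cspg4, another defining pericyte gene, was at 4.04 to 4.24 in endothelial cells and 3.77 to 3.88 in tumour cells, and Anpep (-2.83 ± 0.36) and Pdgfrb were lower. The part of mural cell RNA in the basement membrane and contractile genes was not tested. Neutrophil markers averaged 5.21 in endothelial replicate 1, 4.08 in replicate 2 and 3.77 in replicate 3, and 3.60 to 3.76 in tumour cells. Their 3 calls became 0 without replicate 1. Fibroblast markers averaged 5.57 to 6.55 in endothelial cells and 5.76 to 6.08 in tumour cells, with 4 called higher and 2 lower (2 higher without endothelial replicate 1 or 3 or tumour replicate 1 or 2), and Dpt spread over 8.01, 3.67 and 6.42 in the endothelial arrays, with its call lost without replicate 1 (1.37, adjusted p = 0.0995). Of 11 T and NK cell markers 5 were called higher and 1 lower, and of 6 B cell markers 1 in each direction, none at least 4-fold. The 5 became 8 without endothelial replicate 2 and ranged from 0 to 8 under the alternatives that kept all 7 arrays, and the 1 higher B cell marker became 2 without endothelial replicate 1. For pan-leukocyte markers (2 of 8), dendritic and mast cell markers (2 of 10) and erythrocyte and platelet markers (2 of 6) the calls were all higher and under 4-fold. Over all genes 23% were called higher and 17% lower, and counts near these shares are not read as a result about those cells. The pan-leukocyte calls numbered 0 or 1 without any 1 of the endothelial arrays or tumour replicates 1, 2 and 4, the dendritic and mast cell calls 1, 4 and 3 without endothelial replicates 1, 2 and 3 in turn, and the erythrocyte and platelet calls 1 without tumour replicate 2. Of 7 adipocyte markers 5 were called higher, or 2 without endothelial replicate 1, and Fabp4, an endothelial gene too, was the member at least 4-fold higher. Of 7 lymphatic markers 5 were called higher, or 2 without endothelial replicate 3 and 3 without endothelial replicate 1 or tumour replicate 1 or 2. They included Flt4 (5.25) and Prox1, the defining lymphatic factor (1.14 ± 0.13), at Prox1 levels of 4.26 to 4.79 in endothelial cells and 3.32 to 3.42 in tumour cells.

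MicroRNA loci on the array report transcripts at the locus and not the mature strand. Of 25 measured, 7 were called lower and 5 higher in endothelial cells, and all 25 had a mature sequence in RefSeq (GRCm38.p6). The sequences of the loci the result turns on are shown with the seed, bases 2 to 8 from the 5′ end, in capitals, since the seed decides which messages pair.
miR-23a-3p: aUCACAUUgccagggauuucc
miR-27a-3p: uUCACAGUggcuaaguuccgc
miR-24-3p: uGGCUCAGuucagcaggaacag
miR-221-3p: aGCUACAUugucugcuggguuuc
miR-222-3p: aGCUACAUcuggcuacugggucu
miR-31-5p: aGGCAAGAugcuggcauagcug
miR-126a-3p: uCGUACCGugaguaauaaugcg
The first 3 come from 1 cluster on chromosome 8, and miR-221-3p and miR-222-3p, neighbours on the X chromosome, share their seed. Mir23a read 5.64, 5.0 and 5.66 in endothelial cells, against 7.33, 7.53, 7.46 and 7.59 in tumour cells (-2.04 ± 0.26). Its neighbours Mir27a (-2.08 ± 0.64) and Mir24-2 (-1.0 ± 0.32) were lower too, but both calls were lost without endothelial replicate 2 (adjusted p = 0.058 and 0.0795). The count of 7 was then 4, so these were not the only calls lost. The call of Mir222, given below, was not examined by itself under the alternatives. The call of Mir24-2 was lost without tumour replicate 1 too (adjusted p = 0.0554). Mir221 was lower by -1.75 ± 0.36, Mir222 by -0.78 ± 0.27 and Mir31 by -1.36 ± 0.22, while Mir99a (-2.38 ± 0.74) rested on 3 tumour arrays at 6.16 to 6.89, with the fourth at 3.96, and its call was lost with a variance per cell type (adjusted p = 0.0803) and with array weights (adjusted p = 0.143). Mir126a, the endothelial microRNA that lies within the gene Egfl7, was not called at 0.16 ± 0.40 (adjusted p = 0.761), with 2.79 to 2.84 in endothelial cells and 2.58 to 2.76 in tumour cells. Egfl7 itself read 10.84, 10.55 and 10.09 in endothelial cells and 4.39 to 4.66 in tumour cells (5.93 ± 0.28). The 5 loci called higher (Mir139, Mir210, Mir99b, Mir10a and Mir141) differed by 0.23 to 0.80, and leaving out any 1 of the 7 arrays except endothelial replicate 2 reduced their number, to 1 at the lowest without endothelial replicate 1.

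The same cell types were also compared in untreated and in 21-day mice, where 3656 genes (18.3%) and 6378 genes (32%) were called. In untreated mice 8.18% of genes were called higher and 10.2% lower, and after 21 days 15.7% and 16.3%. Group sizes and spreads differ, so these counts do not by themselves show a change. Of the 462 genes at least 4-fold higher after 7 days, 444 were also called higher in untreated mice and 452 after 21 days. Of the 324 genes at least 4-fold lower, 285 were also called lower in untreated mice and 307 after 21 days. Kdr differed by 6.31 in untreated mice, Vegfa by -2.76 and Slc16a1 by -2.07, all called.

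The change of the cell type difference itself was called for 19 genes (0.0953%) between 7 days and no treatment, 6 higher (0.0301%) and 13 lower (0.0652%), and for 7 genes (0.0351%) between 21 and 7 days, 5 higher (0.0251%) and 2 lower (0.01%). At an unadjusted p under 0.05 limma gave 2203 and 1959 genes. Without 1 array the 19 ranged from 1 (without untreated tumour replicate 2) to 138 and the 7 from 7 to 199, both highest without endothelial replicate 2 of the 7-day group. The 19 became 0 and the 7 became 3 with the replicate number as a block. Galnt3, a glycosyltransferase that starts O-linked glycans, read 4.4, 4.15 and 4.17 in 7-day endothelial cells and 6.65 to 6.86 in 7-day tumour cells, against 4.08 to 4.18 in untreated endothelial and 4.39 to 4.85 in untreated tumour cells. Its difference between the cell types was -2.52 ± 0.16 after 7 days, -0.51 ± 0.17 in untreated mice and -0.27 ± 0.13 after 21 days. The 7-day difference was lower than the untreated one by -2.01 ± 0.23 (adjusted p = 0.000805) and the 21-day difference higher than the 7-day one by 2.25 ± 0.21 (adjusted p = 1.85e-05). The first call held without any 1 of the 23 arrays and was lost with the replicate block (adjusted p = 0.0893). The tumour cells carried most of this movement, since the endothelial values lay between 4.08 and 4.4 in all 11 endothelial arrays.

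Sema3c, a secreted guidance cue, differed by -3.18 ± 0.22 after 7 days, against -1.29 ± 0.24 in untreated mice, a change of -1.89 ± 0.33 (adjusted p = 0.0367). It read 4.32, 4.11 and 4.58 in 7-day endothelial cells and 7.23 to 7.72 in 7-day tumour cells, with 4.49 to 4.70 in untreated endothelial cells and 5.81 to 6.02 in untreated tumour cells. Serpina3n, an acute-phase protease inhibitor, moved on the endothelial side. Its levels were 8.54, 7.92 and 8.63 in 7-day endothelial cells, against 4.83, 6.72 and 5.79 in untreated endothelial cells, and the cell type difference changed by 2.66 ± 0.48 (adjusted p = 0.0383). Rnf167, a ubiquitin ligase, was higher in endothelial cells after 7 days (1.02 ± 0.27) and lower in untreated mice (-1.14 ± 0.29). Each of these 3 calls was lost in some fits that left out 1 array, Sema3c in 8 of 23 such fits, Serpina3n in 12 and Rnf167 in 14. Nestin (Nes), an intermediate filament gene of angiogenic vessels, differed by 4.72 ± 0.23 in untreated mice, 3.00 ± 0.21 after 7 days and 4.83 ± 0.18 after 21 days. Both changes were called, the 7-day difference being lower than the untreated one by -1.73 ± 0.31 (adjusted p = 0.0383) and the 21-day difference higher than the 7-day one by 1.83 ± 0.28 (adjusted p = 0.00707). The call against untreated mice was lost without untreated tumour replicate 2 or 3 and with the replicate block. Nes read 9.03, 9.48 and 9.37 in 7-day endothelial cells and 6.04 to 6.52 in 7-day tumour cells, with 9.02 to 9.45 and 3.92 to 5.09 after 21 days. In untreated mice it read 9.31 to 9.44 in endothelial and 4.30 to 4.88 in tumour cells. The tumour cells carried most of this movement, with means of 4.63 untreated, 6.30 after 7 days and 4.34 after 21 days. The endothelial means were 9.36, 9.29 and 9.17. Rgl1, a guanine nucleotide exchange factor for Ral, changed by -2.18 ± 0.25 between 7 and 21 days (adjusted p = 0.000339), with 7-day tumour cells at 5.20 to 5.30 and 21-day tumour cells at 7.40 to 7.97. Cxcl12 missed the threshold for both changes (1.72 ± 0.34, adjusted p = 0.0559, and -1.59 ± 0.30, adjusted p = 0.0568).

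**Figure D5:**
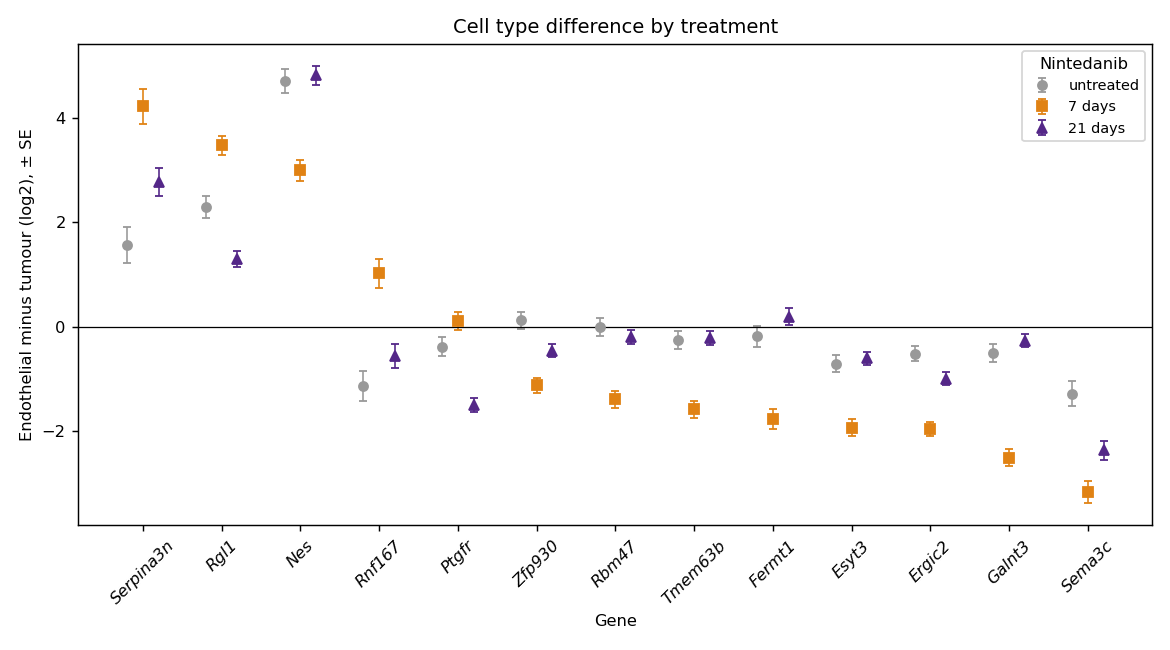
Difference between endothelial and tumour cells (log2, vertical, with its standard error) in untreated mice (grey), after 7 days (orange) and after 21 days of nintedanib (purple), for the 13 named genes whose difference changed between treatments. Galnt3 lies at -0.51, -2.52 and -0.27 in that order, and Serpina3n is highest after 7 days at 4.23.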

How the data were processed

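The authors deposited 1 log2 expression value per transcript cluster and array, made with RMA and oligo per the submitters' processing notes, whose versions the sources used here do not give. In RMA the background is removed, arrays are brought to a common distribution and probes are summarised, so a value is relative and dim genes are compressed. Cells were sorted and RNA was amplified with NuGEN kits before hybridisation to Affymetrix arrays, per the labels' protocols. Clusters were named by the platform annotation: of 35556, 21789 named 1 gene, 1621 named several and 12146 were not listed. Where clusters shared a gene, the brightest by its mean over the 23 arrays was used, which left 19938 genes.

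limma (version 3.58.1 in R 4.3.3) was fitted to the 6 group means of all 23 arrays, with Benjamini-Hochberg adjustment over all 19938 genes and calls at an adjusted p under 0.05. The difference is endothelial minus tumour, and its change between treatments was tested as a contrast of 2 such differences. The genes named are the 15 largest called differences in each direction without overlap, up to 6 members per direction of each list with the smallest p, a panel of 35 genes, up to 6 genes per direction for each change between treatments, the 4 called genes of highest level in each group and called microRNA genes. Other members are given as values, and some were picked after their values were seen. Predicted genes, olfactory and vomeronasal receptors and small RNAs were left out of the largest differences. The members and lists were chosen with earlier results of these data known. The script was tested on simulated data. Alternatives covered the arrays fitted, variance models, array weights, filters on low values, renewed scaling, a replicate block and leaving out each array.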

Additional observations from a re-analysis of the deposited data

Results flagged for a closer look

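Of 355 named genes, 24 (6.76%) had 1 short-term tumour array far from the other three, where chance gives about 5%. Short-term tumour replicate 3 was the distant one for Ackr3 (8.49, group median 8.07), Bub1b (6.18, median 5.86), Ergic2 (7.41, median 7.10), Pax5 (4.16, median 3.91), Pgf (4.43, median 4.15), Sema6d (4.32, median 4.02), Ttc39c (7.97, median 7.45), Vegfd (8.20, median 7.71) and Zfp930 (6.22, median 5.96) on the high side, and for Esyt3 (6.86, median 7.33) and Hk2 (5.17, median 5.41) on the low side. Replicate 1 was distant for Cd36 (3.26, median 2.96), Mcam (5.77, median 5.13), Mthfd1l (7.06, median 6.64), Notch2 (9.35, median 8.66), Smad7 (7.55, median 7.13) and Stat2 (5.05, median 4.70), all high. Replicate 2 was distant for Aplnr (5.80, median 4.21), S100a6 (13.38, median 13.25) and Spry4 (5.36, median 5.17) on the high side and Mmp11 (7.33, median 7.62) on the low side. Replicate 4 was distant for Ccl11 (5.83, median 4.89), high, and for Fabp4 (4.27, median 4.36) and Lif (7.34, median 8.14), low. Groups of 3 arrays were not examined in this way.

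The difference between endothelial and tumour cells was not the same after 7 days as in untreated mice, by limma's test of the change, for Serpina3n (2.66), Rnf167 (2.16), Galnt3 (-2.01), Sema3c (-1.89), Nes (-1.73), Fermt1 (-1.58), Ergic2 (-1.45), Rbm47 (-1.39), Tmem63b (-1.33), Zfp930 (-1.25) and Esyt3 (-1.23), among 19 genes called. Between 21 and 7 days it changed for Galnt3 (2.25), Fermt1 (1.96), Nes (1.83), Tmem63b (1.36), Esyt3 (1.32), Ptgfr (-1.63) and Rgl1 (-2.18). Fermt1, which encodes the integrin adaptor kindlin-1, differed between the cell types by -0.19 in untreated mice, -1.78 after 7 days and 0.19 after 21 days. Of the changes against untreated mice, only that of Galnt3 stayed called without untreated tumour replicate 2 or 3.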

How the results depend on the processing

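With all arrays kept, the 7972 called genes became 4677 above the 50th percentile of mean level, where fewer genes are tested. The 4591 called higher became 2865 in a fit of the 7 arrays, 2893 above the 30th and 1554 above the 50th percentile, 2606 after renewed quantile normalization, 2372 with each array centred on its median and 2858 with the replicate block. The 19 changes against untreated mice became 8 in a fit of the arrays compared, 10 with a variance per cell type, 11 with array weights and 0 with the replicate block. The 7 changes between 7 and 21 days became 17 in a fit of the arrays compared, 12 with a variance trend, 4 above the 50th percentile, 12 after renewed quantile normalization and 3 with the block. Leaving out 1 array gave 6201 (without short-term endothelial replicate 1) to 8317 called genes, 3369 to 4819 higher, 2832 to 3498 lower, 456 to 503 at least 4-fold higher, 315 to 394 at least 4-fold lower, 1 to 138 changes against untreated mice and 7 to 199 between 7 and 21 days. Car9 changed sign after renewed quantile normalization (-0.02). Beyond the filters and smaller fits, the cause was not tested. With the replicate block 5489 genes were called, 2858 higher and 2631 lower, and same-numbered 7-day samples did not deviate together (r = -0.077, -0.031 and 0.002), so the numbers are not taken as pairs. Over named genes and alternatives, 11874 values kept direction and side of the threshold, 407 lost and 61 gained a call, and 1 turned sign. The number of arrays limits the precision, and dim genes lie close to the background signal.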
